A study of Mus musculus with 20 samples.

Results

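Hydrogen peroxide (H2O2) is the product of the superoxide dismutases and the substrate of catalase and the glutathione peroxidases. The transcripts of 9 genes were followed in mouse C2C12 myotubes given H2O2, those of such enzymes and of Msra, which acts on oxidised methionine. The genes were Sod1, Sod2 and Sod3 (superoxide dismutases), Cat (catalase), Gpx1, Gpx3, Gpx4 and Gpx7 (glutathione peroxidases) and Msra (a methionine sulfoxide reductase). They were chosen by name, as every probe set whose only gene symbol in the array's annotation is one of these, which gave 15 of the 22690 probe sets on the array and 9 of the 12393 genes with a probe set of their own. The rule itself uses no measured value.

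C2C12 is an established mouse myoblast line that fuses into multinucleate myotubes when serum is withdrawn. It was differentiated for 96 h and then exposed for 2 h to 0, 1, 10, 100 or 1000 µM H2O2 in medium with 0.5% horse serum, with 4 arrays per dose and 20 in all. Every group, the 0 µM one included, shares the line, the differentiation and the change to 0.5% serum, and 1 cell line stands for muscle, without the vessels, nerve and blood cells of the tissue. The labels call the 4 replicates of a dose independent but do not say whether they were separate cultures, so p-values measure the spread between these arrays.

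Superoxide dismutases turn superoxide into oxygen and H2O2: Sod1 is the copper and zinc enzyme of the cytosol, Sod2 the manganese enzyme of the mitochondrial matrix and Sod3 the secreted enzyme. Catalase, a haem enzyme of peroxisomes, splits H2O2 into water and oxygen without a reductant, whereas glutathione peroxidases spend glutathione to reduce it. Gpx1 works in the cytosol and mitochondria, Gpx3 is secreted, Gpx4 reduces lipid hydroperoxides in membranes, and all 3 carry selenocysteine, while Gpx7 of the endoplasmic reticulum does not. Msra returns methionine oxidised by peroxides to its reduced form. The arrays report messenger RNA, not protein or enzyme activity.

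The stretches of 250 bases before the annotated transcription starts are shown for the 4 genes with 1 annotated start window whose transcripts passed the test at 1000 µM in at least 1 of the fits, described further on, that kept all 20 arrays. They come from RefSeq (GRCm38.p6), run 5′ to 3′ on the gene's strand and end at the base before the start, and capitals mark GC boxes (GGGCGG or its reverse complement CCGCCC) and CCAAT boxes (CCAAT or ATTGG), with overlapping matches counted.
Cat, chr2:103485154-103485403, minus strand: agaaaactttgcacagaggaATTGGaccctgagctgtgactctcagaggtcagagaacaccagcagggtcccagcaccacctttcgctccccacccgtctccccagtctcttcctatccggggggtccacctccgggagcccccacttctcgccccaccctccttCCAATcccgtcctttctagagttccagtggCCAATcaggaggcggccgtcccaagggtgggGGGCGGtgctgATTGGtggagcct
Sod1, chr16:90220512-90220761, plus strand: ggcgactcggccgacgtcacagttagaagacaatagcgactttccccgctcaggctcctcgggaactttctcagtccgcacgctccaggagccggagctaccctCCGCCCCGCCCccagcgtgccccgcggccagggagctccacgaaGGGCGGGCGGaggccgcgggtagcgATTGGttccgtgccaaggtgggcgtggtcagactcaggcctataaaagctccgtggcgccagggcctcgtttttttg
Sod2, chr17:13007589-13007838, plus strand: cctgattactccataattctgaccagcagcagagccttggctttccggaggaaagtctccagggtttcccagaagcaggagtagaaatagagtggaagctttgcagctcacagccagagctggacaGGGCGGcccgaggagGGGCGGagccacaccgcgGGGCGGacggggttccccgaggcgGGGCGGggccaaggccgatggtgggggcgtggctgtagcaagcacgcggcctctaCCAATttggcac
Gpx1, chr9:108338830-108339079, plus strand: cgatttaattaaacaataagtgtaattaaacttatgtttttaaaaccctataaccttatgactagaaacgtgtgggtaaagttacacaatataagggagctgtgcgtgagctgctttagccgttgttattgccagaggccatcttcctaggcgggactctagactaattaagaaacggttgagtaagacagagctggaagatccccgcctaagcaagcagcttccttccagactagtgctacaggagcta

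The Cat window held 4 CCAAT boxes and 1 GC box. Those of Sod1 and Sod2 held 4 GC boxes and 1 CCAAT box each. The Gpx1 window held neither and had 42.0% G and C, against 62.0% in the Cat window, 66.4% in the Sod1 window and 63.6% in the Sod2 window. Of 32851 windows of this length in the same table, 32.7% held a GC box and 33.8% a CCAAT box on either strand. The letters TGACNNNGC, the core of the antioxidant response element read by Nfe2l2 (Nrf2), occurred in 10.2% of all windows and, among 10 windows of 7 of these genes, in that of Sod1. TGTTTAC, a form of the FOXO site, occurred in 3.17% of all windows and in 0 of the 10. Sod3 and Msra have no entry. A match is a description of letters, not a bound site.

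Values are linear probe-set signals in arbitrary units, which the deposited table holds on a common scale (trimmed mean 500.1 to 500.2 on each array). Probe sets were tested if 4 or more arrays had a signal at or above the 40th percentile of that array, which kept 14379 probe sets, among them 13 of these 15 and 8 of the 9 genes. The test was limma on log2 signals, two-sided, with p-values adjusted over all 14379, and a call is an adjusted p under 0.05. Where a gene had several tested probe sets, the one of highest mean signal stands for it. All 20 myotube markers examined were above the filter level on all 20 arrays, among them Myog and Acta1. Of 12 leukocyte markers, 8 did not pass the filter and 1 had no probe set of its own. The 3 tested, Cd14, Laptm5 and Adgre1, were at or above the filter level on 17, 14 and 8 of the 20 arrays. Ptprc, the pan-leukocyte marker, was below it on every array. Of 10 reserve and satellite cell markers, 8 were at or above the filter level on all 20 arrays, Myf5 and Itga7 among them, and Pax7 and Pax3 were below it on all. All 14 cycling cell markers with a probe set, such as Mki67 and Top2a, were at or above it on every array.

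The 4 arrays whose titles carry the number 1, together with the 10 µM array without a number, stood apart from the other 15. The 10 µM array was placed with them because it is the only one of its dose outside the numbers 2 to 4 and because its values had been seen to group with theirs. Set against the other 15 with dose in the fit, they differed in 6617 of 14379 probe sets (46%), 22.5% higher and 23.5% lower. The labels do not say what the number marks. Since each dose has 1 such array, results are given below from the fit on dose alone, from a fit with an added term for these 5 arrays, and within the arrays numbered 2 to 4. The summed signal of 11 fibroblast and matrix markers was 27188 to 33515 on the 5 arrays and 40090 to 53768 on the other 15. Of the 11 markers, 7 had all 5 arrays below all 15, as 4.69% of all tested probe sets did. Lum and Thy1 of this list were below the filter level on all 20 arrays. The sum of the 20 myotube markers was 108382 to 139338 on the 5 and 117116 to 158326 on the 15, with 1 marker wholly below and 2 wholly above. By dose this sum was 108382 to 129503 at 0 µM, 133828 to 136315 at 1 µM and 125101 to 158326 at 10 µM. It was 126452 to 142759 at 100 µM and 133421 to 140591 at 1000 µM. On dose alone limma called 1 of the 20 higher at 1000 µM, where 2.46% of all probe sets were, and 0 lower. The part of the difference between the array sets in the results below was not tested beyond these fits. That of the marker sums by dose was not tested.

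None of the 8 tested genes was called at 1, 10 or 100 µM against 0 µM, and at 1000 µM 1 of 8, Cat, was called higher and none lower. At 1 µM 0 of 14379 probe sets (0%) were called by limma, at 10 µM 1 (0.00695%) and at 100 µM 175 (1.22%), so the doses of 1 and 10 µM left nearly no call anywhere on the array. At an unadjusted p under 0.05 there were 0, 0 and 1 of the 8 genes at 1, 10 and 100 µM, the 1 being Sod2, and over all probe sets 960, 717 and 1604. At 1000 µM limma called 1574 probe sets (10.9%), 354 higher (2.46%) and 1220 lower (8.48%). With each array centred on its median instead, the median of all probe sets being 0.20 lower on the log2 scale at 1000 µM than at 0 µM, the split was 2028 higher (14.1%) and 407 lower (2.83%). In bulk RNA, a change in the share of cells that express a gene and a change in RNA per cell cannot be told apart.

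The median log2 change of the 8 genes at 1000 µM was 0.21, with a range of -0.026 to 0.32, and that of all tested probe sets was -0.07. All 8, each by the probe set that stands for it, lay above the median of all tested probe sets. The value counted for Sod3, 0.20 ± 0.84 (SE), rests in part on signals below the filter level. The other Sod3 probe set, 1417634_at, lay below that median, at -0.11 ± 0.97 (SE). The mean signals of Cat, Sod1, Sod2, Gpx1, Gpx3 and Gpx4 lay at percentiles 84.8 to 97.9 of all probe sets. Those of Sod3 and Msra lay at 44.9 and 54.5. The part of brightness in this was not tested. With median centring the log2 changes were larger, at 0.52 for Sod1, 0.51 for Gpx1, 0.49 for Cat, 0.42 for Sod2, 0.39 for Gpx4 and 0.26 for Msra. That of Gpx3 turned from below 0 to 0.18. Quantile normalization called 1 of the 8 genes at 1000 µM, Cat, and 771 of all 14379 probe sets. It made the change of Gpx4 smaller than on dose alone, as given below, so not every normalization enlarged the changes. The 3 genes Cat, Sod2 and Gpx1 had every array of 1000 µM above every array of 0 µM, and none had every array below, where 957 of 14379 probe sets (6.66%) lay wholly above and 1988 (13.8%) wholly below. At 100 µM the median was 0.10 for the 8 genes and -0.03 for all tested probe sets, and no gene of the 8 had groups that did not overlap, where 8.98% of all probe sets did.

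**Figure D1:**
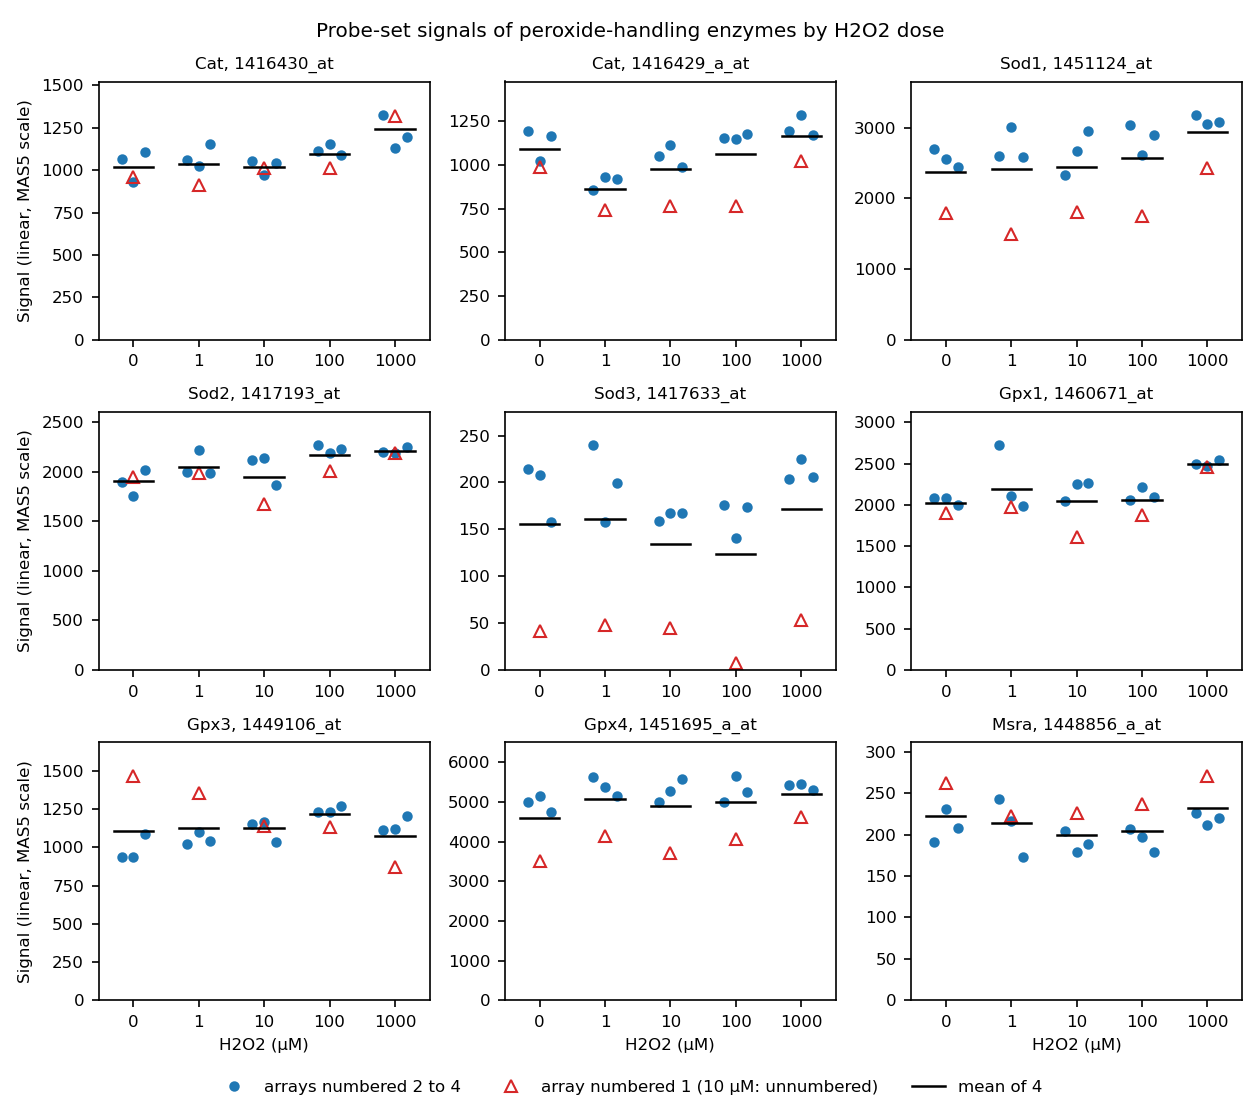
Linear signals of the 8 tested genes and the other Cat probe set (vertical axes, arbitrary MAS5 units) against H2O2 dose (horizontal axes, µM). Filled points are the arrays numbered 2 to 4, open triangles the arrays numbered 1 with the unnumbered 10 µM array, and the line is the mean of 4. Gpx1 at 1000 µM lies between 2463 and 2545, above the 1901 to 2087 of 0 µM, and the triangles of Sod3 lie at 53.8 or less at every dose.

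Catalase was the member with a call. The Cat probe set 1416430_at gave 1320, 1325, 1131 and 1193 on the 4 arrays of 1000 µM, against 963, 1068, 932 and 1107 on those of 0 µM. The lowest array at 1000 µM was above the highest at 0 µM. At the doses between, it gave 911, 1059, 1025 and 1153 at 1 µM, 1012, 1056, 973 and 1044 at 10 µM, and 1015, 1111, 1155 and 1091 at 100 µM, which all overlapped 0 µM. The means were 1242 ± 96.0 at 1000 µM and 1018 ± 83.4 at 0 µM (SD, n = 4 each), a log2 change of 0.29 ± 0.08 (SE; 95% interval 0.11 to 0.46; limma adjusted p = 0.0309), which is a rise of 22.1%. The call was lost when any of 4 arrays was left out: 0 µM replicate 1 (limma adjusted p = 0.0776) or 3 (0.0851), or 1000 µM replicate 1 (0.0745) or 2 (0.0959), with log2 changes of 0.25 to 0.33 over all 8 omissions. It was also lost when the mean of the gene's probe sets was tested (0.19 ± 0.09, SE; limma adjusted p = 0.184). The call held with the term for the 5 arrays (limma adjusted p = 0.0093) and within arrays 2 to 4 (0.23 ± 0.08 (SE), limma adjusted p = 0.0476).

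The second Cat probe set, 1416429_a_at, had its lowest mean signal at 1 µM, a dose at which the difference between the 2 probe sets was not tested. It gave 745, 854, 932 and 918 at 1 µM, against 990, 1195, 1022 and 1169 at 0 µM, with no overlap. The log2 change was -0.34 ± 0.13 (SE), which limma did not call over all arrays (adjusted p = 0.697) but called lower within arrays 2 to 4 (-0.32 ± 0.07, SE; limma adjusted p = 0.0427; 0.612% of all probe sets called lower). At 1 µM 315 of 14379 probe sets (2.19%) had all 4 arrays below those of 0 µM. Signals were 767, 1051, 1114 and 988 at 10 µM and 765, 1158, 1150 and 1180 at 100 µM. At 1000 µM it gave 1021, 1196, 1286 and 1174, a log2 change of 0.10 ± 0.13 (SE, limma adjusted p = 0.709). The change at 1000 µM differed between the probe sets by -0.19 ± 0.14 (SE) for 1416429_a_at minus 1416430_at, which limma did not call (adjusted p = 0.746 over 5112 such pairs, of which 0.606% were called). Across the 5 doses a moderated F-test called 1416429_a_at with the term for the 5 arrays (limma adjusted p = 0.0022; 20.9% of all probe sets called) and within arrays 2 to 4 (limma adjusted p = 0.0026; 20.3% called), not over all arrays on dose alone (0.194).

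Of the enzymes that produce H2O2, Sod2 had its 1000 µM arrays wholly above those of 0 µM in both bright probe sets, without a call. Probe set 1417193_at gave 2186, 2195, 2192 and 2247 at 1000 µM, against 1949, 1897, 1755 and 2015 at 0 µM. The SD over the 4 arrays was 28.2 at 1000 µM and 111 at 0 µM. The log2 change was 0.21 ± 0.08 (SE; 95% interval 0.05 to 0.38; limma adjusted p = 0.0866). At 100 µM it gave 2002, 2264, 2192 and 2226, a log2 change of 0.19 ± 0.08 (SE, limma adjusted p = 0.345), and the 2002 of replicate 1 lay below the highest array of 0 µM. Signals were 1985, 1991, 2220 and 1990 at 1 µM and 1674, 2121, 2141 and 1861 at 10 µM, both overlapping 0 µM.

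The other Sod2 probe set gave nearly the same change at 1000 µM. Probe set 1448610_a_at gave 2096, 2111, 1927 and 1894 at 1000 µM, against 1778, 1674, 1728 and 1814 at 0 µM, a log2 change of 0.20 ± 0.08 (SE, limma adjusted p = 0.119). It gave 2030, 1576, 1604 and 1508 at 1 µM, 1937, 1760, 1827 and 1894 at 10 µM, and 1810, 1882, 1934 and 1893 at 100 µM. With the term for the 5 arrays both probe sets were called higher at 1000 µM (limma adjusted p = 0.0285 for 1417193_at and 0.0421 for 1448610_a_at), and within arrays 2 to 4 both were again (0.0292 and 0.0383 by limma). The 2 probe sets differed in their change by -0.015 ± 0.12 (SE, limma adjusted p = 0.993). The remaining Sod2 probe set, 1417194_at, was below the filter level on all 20 arrays, with signals of 41.0 to 78.9, and was not tested.

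Sod1 was not called on dose alone, with its difference at 1000 µM within the spread between arrays. Probe set 1451124_at gave 2428, 3178, 3053 and 3088 at 1000 µM, against 1791, 2692, 2555 and 2451 at 0 µM. Replicate 1 was the lowest array of both groups, and the 2428 of 1000 µM fell within the range of 0 µM. The log2 change was 0.32 ± 0.20 (SE; 95% interval -0.11 to 0.74; limma adjusted p = 0.346). With the term for the 5 arrays the same change had an SE of 0.09 and was called higher (limma adjusted p = 0.0121), as it was within arrays 2 to 4 (0.28 ± 0.08, SE; limma adjusted p = 0.0316), where the 3 arrays of 1000 µM lay above the 3 of 0 µM. Signals were 1495, 2594, 3009 and 2592 at 1 µM, 1808, 2338, 2666 and 2957 at 10 µM, and 1747, 3037, 2616 and 2893 at 100 µM. The dimmer Sod1 probe set 1435304_at, at 152 to 325 on all arrays, had a log2 change of -0.06 ± 0.23 at 1000 µM (SE, limma adjusted p = 0.894), which turned to 0.14 with median centring, to 0.13 with quantile normalization and to 0.009 within arrays 2 to 4, none of them called.

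Sod3 varied more between arrays than between doses. Probe set 1417633_at gave 53.8, 203, 225 and 205 at 1000 µM, against 41.2, 214, 208 and 158 at 0 µM. It gave 48.4, 239, 158 and 199 at 1 µM, 45.1, 159, 167 and 167 at 10 µM, and 7.10, 176, 141 and 173 at 100 µM. In each dose the array numbered 1, or the unnumbered one, was the low value and lay below the filter level, so the fit over all arrays rests in part on signals of no measured size. The log2 change at 1000 µM was 0.20 ± 0.84 (SE; 95% interval -1.54 to 1.94; limma adjusted p = 0.91), so a change of over 2-fold in either direction lay within the interval. Within arrays 2 to 4 it was 0.14 ± 0.16 (SE; 95% interval -0.19 to 0.47; limma adjusted p = 0.578). The dimmer probe set 1417634_at had the other sign, at -0.11 ± 0.97 at 1000 µM over all arrays (SE, limma adjusted p = 0.96). At 100 µM the changes were 0.22 ± 0.97 for 1417634_at and -0.81 ± 0.84 for 1417633_at (SE), neither of them called.

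Gpx1, the abundant glutathione peroxidase of most cells, had its 1000 µM arrays close together and wholly above those of 0 µM. Its probe set 1460671_at gave 2463, 2498, 2470 and 2545 at 1000 µM, against 1901, 2081, 2087 and 2002 at 0 µM. It gave 1970, 2721, 2113 and 1992 at 1 µM, 1608, 2049, 2254 and 2265 at 10 µM, and 1875, 2063, 2213 and 2099 at 100 µM. All 4 arrays of 1000 µM also lay above all of 100 µM, as 4.44% of all probe sets did, while 1 array of 1 µM, replicate 2, exceeded them. The coefficient of variation was 1.49% at 1000 µM and 4.30% at 0 µM. The log2 change was 0.31 ± 0.11 (SE; 95% interval 0.09 to 0.53), which limma did not call (adjusted p = 0.0661), and called with the term for the 5 arrays (0.0116) and within arrays 2 to 4 (0.28 ± 0.09, SE; limma adjusted p = 0.0335).

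Against 100 µM, Gpx1 was 0.28 ± 0.11 higher at 1000 µM on the log2 scale (SE, limma adjusted p = 0.156), and it was called with the term for the 5 arrays (limma adjusted p = 0.0332), where 2.92% of all probe sets were called higher. Limma on dose alone called 0 of the 8 genes in that comparison, and 625 of all 14379 probe sets (4.35%). At an unadjusted p under 0.05 there were 2 of the 8 (Cat and Gpx1) and 2555 of the 14379. At 100 µM against 0 µM the Gpx1 change was 0.03 ± 0.11 (SE, limma adjusted p = 0.953).

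Gpx4, which guards membranes against lipid peroxidation, was not called on dose alone. Probe set 1451695_a_at gave 4625, 5441, 5445 and 5294 at 1000 µM, against 3512, 5003, 5145 and 4744 at 0 µM, a log2 change of 0.19 ± 0.14 (SE, limma adjusted p = 0.416). It gave 4141, 5631, 5375 and 5147 at 1 µM, 3721, 5008, 5280 and 5582 at 10 µM, and 4080, 4991, 5666 and 5251 at 100 µM. Replicate 1 was the lowest of every group. The change was called with the term for the 5 arrays (limma adjusted p = 0.0351) and not within arrays 2 to 4 (0.12 ± 0.06, SE; limma adjusted p = 0.198). Quantile normalization moved it to 0.025. The other Gpx4 probe set, 1456193_x_at, whose suffix marks probes that may match further sequences, had a log2 change of 0.22 ± 0.19 (SE, limma adjusted p = 0.513), with signals of 2233 to 4898 over the 20 arrays.

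Gpx3 differed in opposite directions in the arrays numbered 1 and in the others. Probe set 1449106_at gave 870, 1115, 1118 and 1208 at 1000 µM, against 1469, 939, 937 and 1088 at 0 µM. Replicate 1 was thus the lowest of its group at 1000 µM and the highest at 0 µM. The log2 change was -0.026 ± 0.13 over all arrays (SE, limma adjusted p = 0.925), and between the arrays numbered 1 it was -0.76. Within arrays 2 to 4 it was 0.22 ± 0.07 and called higher (SE, limma adjusted p = 0.0439), where 4.85% of all probe sets were called higher. At 100 µM the signals were 1132, 1231, 1232 and 1268, and within arrays 2 to 4 the change from 0 µM was 0.34 ± 0.07, again called higher (SE, limma adjusted p = 0.0151; 1.36% of all probe sets called higher). Over all arrays the change at 100 µM was 0.16 ± 0.13 (SE, limma adjusted p = 0.726). Signals were 1357, 1020, 1099 and 1042 at 1 µM and 1143, 1154, 1170 and 1035 at 10 µM. A dose by array-set interaction, added after the data were seen, tested whether the change differed between the 5 arrays and the other 15, with the spread taken from the other 15 since each dose has 1 of the 5. For Gpx3 the change in the 5 arrays minus that in the 15 was -0.97 ± 0.14 at 1000 µM (SE, limma adjusted p = 0.0020; 2.98% of all probe sets called) and -0.71 ± 0.14 at 100 µM (limma adjusted p = 0.0107; 4.37% called). Of the other members, Gpx4 1456193_x_at had 0.63 ± 0.16 at 1000 µM and 0.59 ± 0.16 at 1 µM (SE). At 10 and 100 µM it had 0.39 ± 0.16 and 0.0038 ± 0.16 (SE). Sod3 1417633_at was called at 100 µM, where its low array read 7.10, below the filter level.

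Msra, at 211 to 271 at 1000 µM and 192 to 262 at 0 µM, did not differ by more than the spread between arrays. Probe set 1448856_a_at gave 271, 226, 211 and 220 at 1000 µM, against 262, 192, 231 and 208 at 0 µM, a log2 change of 0.06 ± 0.14 (SE; 95% interval -0.22 to 0.34; limma adjusted p = 0.83). It gave 223, 243, 217 and 173 at 1 µM, 226, 204, 179 and 189 at 10 µM, and 238, 207, 197 and 179 at 100 µM. Gpx7, represented by 1417836_at, was below the filter level on all 20 arrays, with signals of 5.50 to 47.4, and was not tested.

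**Figure D2:**
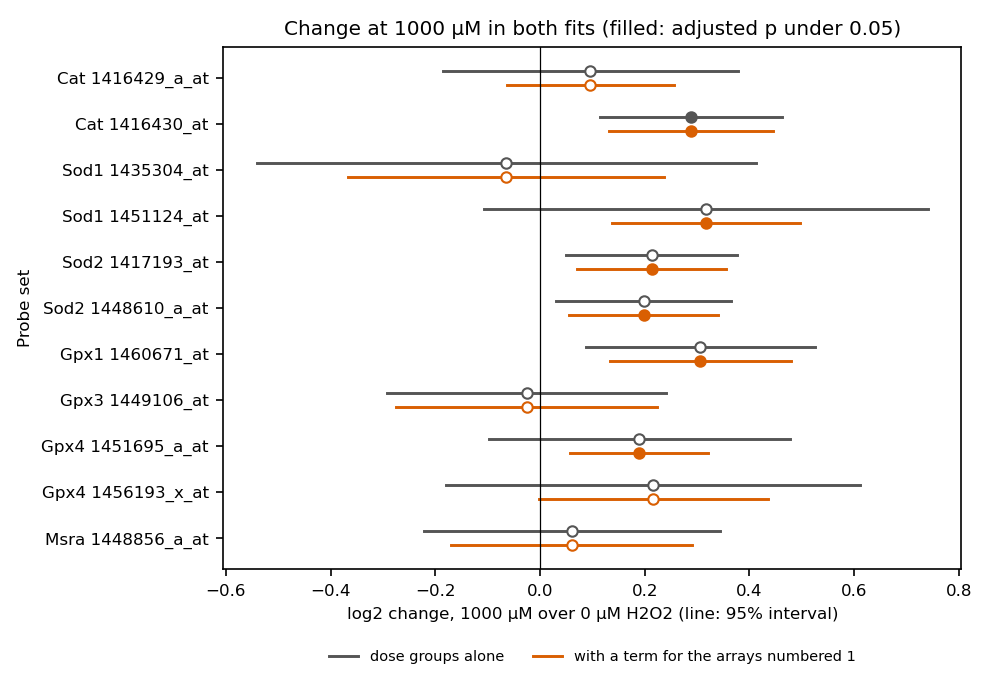
Log2 change at 1000 µM over 0 µM H2O2 (horizontal axis) for the 11 tested probe sets other than those of Sod3, whose intervals would not fit the axis, with 95% intervals, from the fit on dose alone (grey) and from the fit with a term for the 5 arrays numbered 1 or unnumbered (orange). Filled points have an adjusted p under 0.05: Cat 1416430_at in the fit on dose alone, and that probe set with Sod1 1451124_at, both of Sod2, Gpx1 and Gpx4 1451695_a_at in the other.

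With the term for the 5 arrays, 5 of the 8 genes were called higher at 1000 µM (Cat, Sod1, Sod2, Gpx1 and Gpx4) and none lower, where 1028 of all 14379 probe sets were called higher (7.15%) and 2254 lower (15.7%). Within arrays 2 to 4, 5 of the 8 were called higher (Cat, Sod1, Sod2, Gpx1 and Gpx3), against 697 of all probe sets (4.85%). The largest of these log2 changes was 0.32, that of Sod1 with the term. With median centring, 3 of the 8 were called higher (Cat, Sod2 and Gpx1), where 14.1% of all probe sets were. The study's own kind of rule asks for every treated array on the same side of every control array and a mean change of over 1.75-fold. Without the software's difference calls, which were not used here, this rule met 71 of all probe sets upward and 191 downward at 1000 µM, and 0 of these 8 genes, whose highest ratio of means was 1.24.

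**Figure D3:**
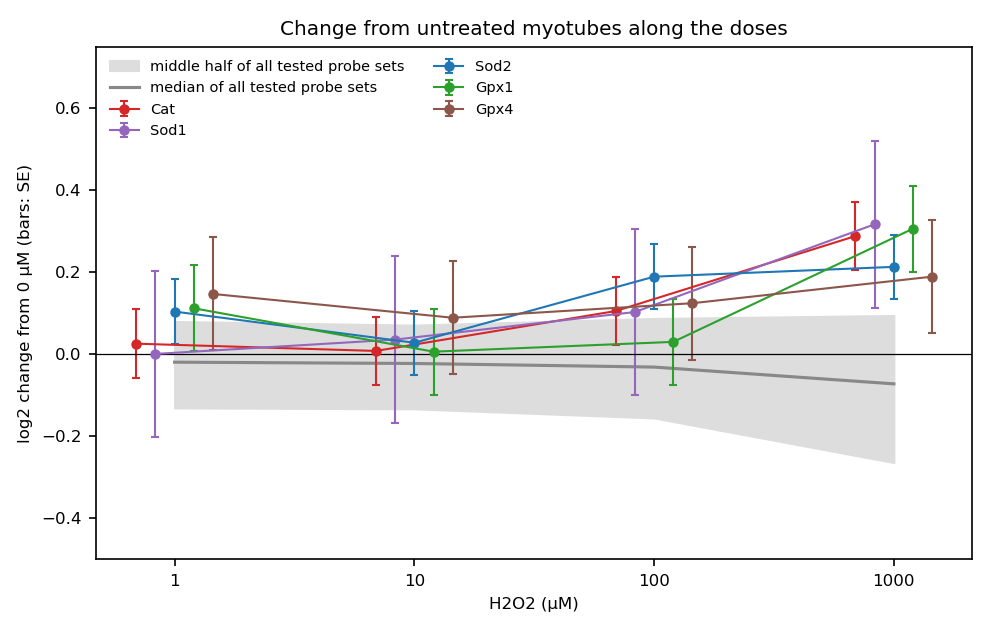
Log2 change from 0 µM (vertical axis, bars are SE, n = 4 per dose) along the H2O2 doses (horizontal axis, µM, equal steps) for the 5 genes called in at least 1 fit that kept all arrays, with points set side by side at each dose. The grey line is the median of all 14379 tested probe sets and the band runs from their lower to their upper quartile, -0.26 to 0.09 at 1000 µM. The 5 genes lie above the band at 1000 µM, the dose whose calls chose them, and Gpx1 stays at 0.03 at 100 µM. Of the tested genes not shown, Sod3 was at 0.20, Msra at 0.06 and Gpx3 at -0.026 at 1000 µM.

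Along the doses, a linear trend over the 5 dose ranks was called for 1 of the 8 genes, Cat, at 0.066 ± 0.019 log2 units per dose step (SE, limma adjusted p = 0.0269), where 405 of 14379 probe sets had a called trend upward (2.82%) and 1207 downward (8.39%). Of the other probe sets, Sod2 1448610_a_at had a called trend of 0.057 ± 0.018 (SE, limma adjusted p = 0.045), which was lost when 17 of the 20 arrays were left out in turn. Sod2 1417193_at had 0.051 ± 0.018 (SE, limma adjusted p = 0.065). The Cat trend was lost in 4 of 20 omissions, those of the same arrays as above, and with the mean of the gene's probe sets (limma adjusted p = 0.0746). Within arrays 2 to 4 the trend was called for 4 genes, Cat, Sod1, Sod2 and Gpx3, the last at 0.068 ± 0.016 per step (SE, limma adjusted p = 0.0071; 6.48% of all probe sets called upward). The moderated F-test over the 5 doses called 0 of the 8 genes and 8.01% of all probe sets, with 3 of the 8 at an unadjusted p under 0.05 (Cat, Sod2 and Gpx1).

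For Sod3 the arrays numbered 1 and the rest did not overlap in either probe set. The 5 arrays gave 7.10 to 53.8 for Sod3 1417633_at, against 141 to 239 on the other 15, and 9.50 to 16.7 for 1417634_at, against 74.0 to 129. Both ranges of the 5 arrays lie below the filter level, which was 84.5 to 106 on those arrays, so no size is given for this difference, and Sod3 was tested only because the other arrays passed the filter. Both Gpx4 probe sets also had all 5 arrays below all 15, by -0.40 ± 0.05 for 1451695_a_at (SE, limma adjusted p = 7.4e-07) and by -0.51 ± 0.08 for 1456193_x_at (1.9e-05 by limma). Over all tested probe sets 675 (4.69%) had the 5 arrays wholly below and 530 (3.69%) wholly above.

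**Figure D4:**
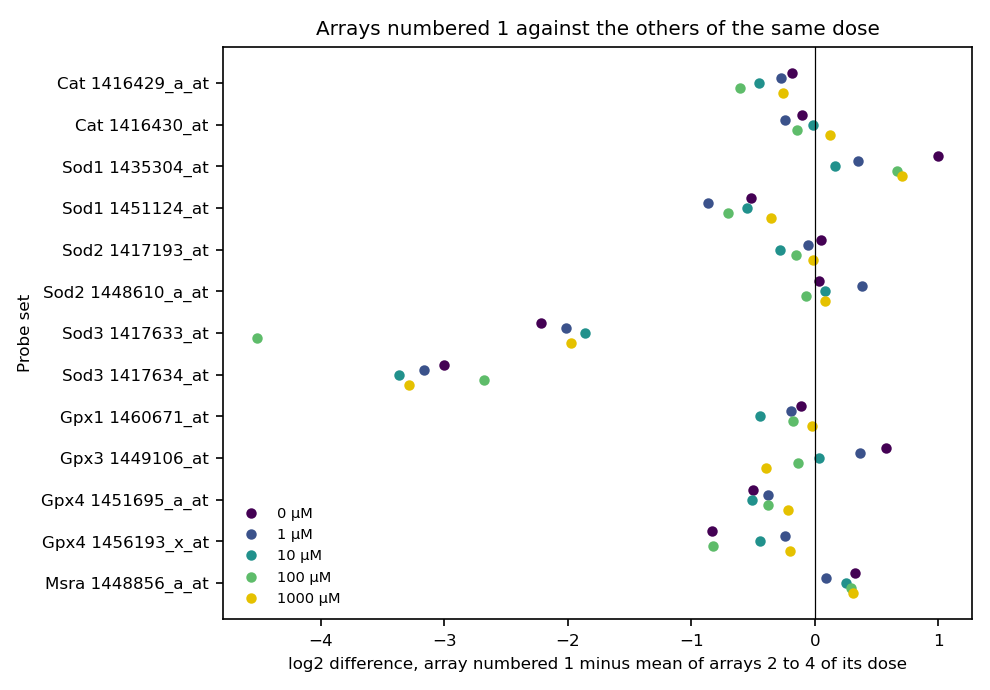
Log2 difference between the array numbered 1 (unnumbered at 10 µM) and the mean of arrays 2 to 4 of the same dose (horizontal axis) for the 13 tested probe sets, 1 point per dose, coloured by dose. The points of both Sod3 probe sets, whose 5 arrays are below the filter level, lie below 0 at every dose, those of Sod1 1435304_at and Msra above 0, and those of Gpx3 on both sides.

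The same 5 arrays were lower for Sod1 1451124_at, by -0.60 ± 0.06 (SE, limma adjusted p = 1.9e-07), yet higher for the dimmer Sod1 1435304_at, by 0.58 ± 0.11 (0.00016 by limma), so the probe sets of 1 gene went opposite ways. They were lower for Cat 1416429_a_at by -0.35 ± 0.06 (SE, limma adjusted p = 3.0e-05) and for Gpx1 by -0.19 ± 0.06 (0.0136), and higher for Msra by 0.25 ± 0.08 (0.0142). Cat 1416430_at, both bright Sod2 probe sets and Gpx3 were not called in this comparison (limma adjusted p = 0.272, 0.135, 0.102 and 0.431).

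The genes whose signals ran most like those of each member were taken as the 2 with the highest Pearson correlation over the 20 arrays. These correlations are descriptions: all points share the same arrays, and the 5 arrays set apart weigh on them. Sod3 was most like Cd9 (r = 0.96) and Idh1 (0.96), with r of 0.33 and 0.28 over the 15 arrays numbered 2 to 4. Gpx4 was most like Mgp (0.97) and Col3a1 (0.96), genes of the extracellular matrix, with 0.84 and 0.77 over the 15. Gpx1 was most like Rrp1 (0.90) and Washc3 (0.89), with 0.89 and 0.86 over the 15. Cat was most like Arf4 (0.81) and Smim3 (0.79), with 0.82 and 0.72 over the 15. The others were Myl12b and Atp6v0b for Sod1, Pgm2 and Taf10 for Sod2, Trpv6 and Pigp for Gpx3, and Fbxo17 and Slc25a5 for Msra, with r of 0.77 to 0.93 over 20 arrays and 0.58 to 0.81 over the 15.

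Of 12 tested genes of thioredoxin and glutathione recycling, which feed reductant to peroxide removal, 4 were called higher at 100 µM, none lower, and 8 did not pass, where 0.862% of all probe sets were called higher. They were Srxn1, which reactivates peroxiredoxins, at 1.30 ± 0.16 (SE, limma adjusted p = 4.1e-05), Gclc at 0.87 ± 0.16 (0.0042) and Gclm at 0.86 ± 0.17 (0.0116), the subunits of the enzyme that limits glutathione synthesis, and Txnrd1, the cytosolic thioredoxin reductase, at 0.80 ± 0.08 (3.5e-06). At 1000 µM against 0 µM none of the 12 was called, with Txnrd1 at 0.21 ± 0.08 (SE, limma adjusted p = 0.0979). The same 4 genes were lower at 1000 than at 100 µM, by -1.13 ± 0.16 for Srxn1 (SE, limma adjusted p = 0.00014) and by -1.18 ± 0.16 for Gclc (1.0e-04). In that comparison 3.6% of all probe sets were called lower. The differences of Cat, Sod2 and Gpx1 between those doses were 0.18 ± 0.08, 0.024 ± 0.08 and 0.28 ± 0.11 (SE), none of them called. All these values rest on the same arrays.

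Among 10 tested regulators linked to transcription of Cat, Sod2 or Gpx1, 1 was called higher at 100 µM: Nfe2l2 (Nrf2), the activator of antioxidant response elements, at 0.37 ± 0.09 (SE, limma adjusted p = 0.0419). At 1000 µM 3 were called lower: Foxo1, a forkhead factor, at -0.82 ± 0.12 (SE, limma adjusted p = 0.0002), Ppargc1b, a coactivator of mitochondrial genes, at -0.73 ± 0.13 (0.0013), and Xbp1, a factor of the unfolded protein response, at -0.31 ± 0.10 (0.049). At that dose 8.48% of all probe sets were called lower. The median change of the 10 was -0.08, beside -0.07 for all tested probe sets.

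Of 8 tested genes of copper and manganese supply, Atp7a, a copper pump that loads secreted enzymes such as Sod3, was called lower at 100 µM, at -0.37 ± 0.09 (SE, limma adjusted p = 0.0294; 0.355% of all probe sets called lower), and at 1000 µM, at -0.34 ± 0.09 (0.0157). No other gene of that list was called at either dose, and Ccs, the copper chaperone of Sod1, was at 0.07 ± 0.09 at 100 µM (SE, limma adjusted p = 0.848). Of 7 tested genes of selenoprotein synthesis, Secisbp2l was called lower at 1000 µM, at -0.77 ± 0.18 (SE, limma adjusted p = 0.0083). Of 10 other selenoproteins, Dio2, which activates thyroid hormone, was called lower at 1000 µM, at -0.60 ± 0.14 (SE, limma adjusted p = 0.0101). None of either selenium list was called at 100 µM. For these single calls at 1000 µM, 8.48% of all probe sets were called lower at that dose.

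Of the other enzymes that reduce peroxides or methionine sulfoxide, 5 of 13 were tested and none was called at 100 or 1000 µM against 0 µM, and Msrb1 had the lowest p at 1000 µM, with 0.25 ± 0.12 (SE, limma adjusted p = 0.213). Of 12 tested genes of peroxisomes, the home of catalase, none was called at either dose. Pex5, the receptor that imports peroxisomal proteins, came nearest at 1000 µM with -0.30 ± 0.10 (SE, limma adjusted p = 0.055). Of 5 tested genes of superoxide or peroxide producers, Smox, a spermine oxidase that releases H2O2, was called lower at 1000 µM, at -0.48 ± 0.11 (SE, limma adjusted p = 0.0064). There 8.48% of all probe sets were called lower. None of the 5 was called at 100 µM.

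With the term for the 5 arrays more list genes were called, and so were more of all probe sets, 7.15% higher and 15.7% lower at 1000 µM. At that dose there were 2 higher and 0 lower of the 5 other peroxide and methionine sulfoxide reducers, 1 and 0 of the 12 recycling genes, 1 and 2 of the 8 of copper and manganese supply, and 0 and 2 of the 7 of selenoprotein synthesis. The other selenoproteins had 3 higher and 1 lower of 10, the peroxisome list 0 and 2 of 12, the producers 1 and 1 of 5, and the regulators 0 and 3 of 10. Within arrays 2 to 4, where 4.85% of all probe sets were called higher and 12.7% lower, the regulators had 2 higher and 4 lower, the recycling genes 2 and 0, the reducers 1 and 0, and the peroxisome list 0 and 1. The remaining lists had there 1 higher and 2 lower (copper and manganese supply), 0 and 1 (selenoprotein synthesis), 2 and 1 (other selenoproteins) and 1 and 1 (producers). At 100 µM the counts with the term were those on dose alone in every list but the regulators, which had 2 higher and 0 lower, where 1.94% of all probe sets were called higher.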

How the data were processed

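Total RNA of C2C12 myotubes was hybridised to 20 Affymetrix Mouse Genome 430A arrays, 4 per H2O2 dose. The authors deposited linear intensity values, 1 signal per probe set, computed with Affymetrix Microarray Suite 5.0 (MAS5), per the series' design text and the submitters' processing notes. The genome build behind the probe annotation is not given in the sources used here. The number of arrays limits the precision.

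From these values, each array was rescaled to a common 2% trimmed mean (500.1 to 500.2 as deposited), signals under 1 were set to 1, and log2 was taken. The 64 control probe sets were left out. Gene symbols came from the platform annotation: 20393 probe sets had 1 symbol, 691 several and 1606 none. After the filter 14379 probe sets were fitted with limma 3.58.1 (R 4.3.3) on the 5 doses with an intensity trend in eBayes, 15 residual degrees of freedom and Benjamini-Hochberg adjustment. The procedure was tested on simulated data. No pair of arrays held identical values, and the lowest correlation between arrays was 0.934.

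The members and gene lists were chosen with earlier results of these data known. Named genes were all members, the called genes of each list (or that of lowest p where none was called) and the genes most like each member. Of each list at most 3 called genes in a direction fall under this rule, and Ccs and the value of Txnrd1 at 100 µM were added after their values were seen. Correlations of deviations from group means were over 0.1 in 33 of 36 same-numbered pairs of arrays (0.0099 to 0.51), and all were above 0. As 3 pairs fell short of 0.1, the main fit did not pair samples by number. The group means include the 5 arrays set apart, which shifts the deviations of the other arrays of every dose alike. These correlations thus cannot decide whether the numbers 2 to 4 mark pairs, and a replicate block was run as an alternative. Alternatives were median centring, quantile normalization, a floor of 16, no filter, a filter at the 60th percentile, eBayes without a trend, the mean of a gene's probe sets, a replicate block, a term for the 5 arrays numbered 1 or unnumbered, arrays 2 to 4 alone, the authors' kind of fold rule, and each array left out in turn. Values were also set within the arrays numbered 1, where each dose has 1 array, with no test, and a dose by array-set interaction with 10 residual degrees of freedom was added after the data were seen.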

Additional observations from a re-analysis of the deposited data

Results flagged for a closer look

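In 11 of 65 groups of 4 arrays, 1 array lay far from the other 3 relative to the group's range (Dixon's test). For a single group chance gives about 1 in 20. The 65 groups are 13 probe sets on the same 20 arrays and so are not independent. In 9 of the 11 it was replicate 1, which at 10 µM is the unnumbered array. For Sod3 1417633_at these low arrays read 45.1 at 10 µM, 7.1 at 100 µM and 53.8 at 1000 µM. For Sod3 1417634_at they read 12.1 at 0 µM, 9.5 at 10 µM and 16.7 at 100 µM. Cat 1416429_a_at was low in replicate 1 of 100 µM, at 765, and Sod1 1451124_at in replicate 1 of 1000 µM, at 2428. Sod1 1435304_at was high in replicate 1 of 0 µM, at 325. In the others, Sod2 1417193_at was high in replicate 3 of 1 µM, at 2220, and in replicate 4 of 1000 µM, at 2247.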

How the results depend on the processing

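Among the 8 tested genes, the count called at 1000 µM against 0 µM was 1 on dose alone. It was 3 with median centring, 4 with a replicate block, 5 with the term for the 5 arrays, 5 within arrays 2 to 4, 0 by the fold rule and 0 to 1 with single arrays left out. At 100 µM it was 0, and 1 within arrays 2 to 4. Between 1000 and 100 µM it was 0, and 1 with the replicate block and 1 with the term. For the trend it was 1, then 3 with median centring, 4 with the replicate block, 4 with the term, 4 within arrays 2 to 4, and 0 to 2 with single arrays left out. The F-test called 0, then 3 with median centring, 1 with the replicate block, 3 with the term and 1 within arrays 2 to 4. Gpx3 1449106_at at 1000 µM turned to 0.22 within arrays 2 to 4 (limma adjusted p = 0.0439). With the mean of a gene's probe sets, Sod2 was called at 1000 µM and in the trend, and Cat was not. In that setting 1088 of 8159 genes were called at 1000 µM and 1123 in the trend. Of the 19 numbered arrays, 4 correlated best with an array of their own number. The cause of these differences was not tested.

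Over all probe sets the calls at 1000 µM were 1574, against 2435 with median centring, 771 with quantile normalization, 2854 with the replicate block, 3282 with the term and 2528 within arrays 2 to 4. At 100 µM they were 175, against 402, 570 and 358 with the last 3 of these settings. Between 1000 and 100 µM they were 625, against 400 with median centring, 368 with quantile normalization, and 1390, 1658 and 1302 with those 3. For the trend they were 1612, against 2188 with median centring, 962 with quantile normalization, and 2884, 3317 and 3051 with those 3. For the F-test they were 1152, against 975 with median centring, 786 with quantile normalization, and 2271, 3003 and 2925 with those 3. At 1 µM they were 0, with 16 under the term and 107 within arrays 2 to 4, and at 10 µM 1, with 2, 2 and 4 in the same 3 settings.

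Over 29 settings, 1752 of 1831 values of single probe sets kept their call or stayed without one, 28 lost a call, 50 gained one, and 1 (Gpx3, above) turned and gained one. In 125 values called in neither setting the sign differed from that on dose alone. A floor of 16 and a filter at the 60th percentile changed none of them. Sod3 was near the filter level (15 of 20 arrays at or above it for 1417633_at), Gpx7 below it, and MAS5 signals that low carry large error.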

Other observations

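Over the arrays numbered 2 to 4, the 15 values of Sod2 1417193_at and Gpx3 had a correlation of 0.88, against 0.23 over all 20 arrays. Those of Gpx1 and Gpx4 1451695_a_at had 0.69 and 0.72. Sod1 1451124_at and Gpx4 had 0.39 over the 15 arrays and 0.86 over the 20. All points share the same arrays and doses, and these values are descriptions.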
